A study of Mus musculus with 6 samples.

Results

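The p53 family and its oocyte apoptosis genes were described in whole ovaries of newborn mice in which Hnrnpl, a gene for an RNA-binding splicing regulator, was targeted in germ cells. The set held 10 genes chosen by symbol, namely Trp53, Trp63, Trp73, Chek2, Mdm2, Cdkn1a, Bbc3, Pmaip1, Bax and Bcl2l1, and all 10 were found among the 25164 symbols of the deposited table. Day 1 ovaries on a C57BL/6 background were compared between 3 libraries with the genotype hnRNPL flox/flox;Stra8-cre (cKO) and 3 libraries labelled only as wild type (WT). Stra8-cre expresses Cre recombinase in germ cells, so somatic cells of the cKO ovary are not its intended target. The protocol text also speaks of a hormone challenge and names neither the agent nor the group it was given to. The labels do not say whether each library came from its own animal, so the p-values measure only the spread between these libraries. Levels are given as FPKM, a fragment count corrected for how long the transcript is and how deeply the library was read.

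In mouse oocytes the long TA form of p63, encoded by Trp63, is kept inactive until DNA breaks activate the checkpoint kinase CHEK2, which phosphorylates it. Active p63, and p53 beside it, switch on Bbc3 (PUMA) and Pmaip1 (NOXA), whose proteins release the pore-forming protein BAX from its inhibitors, among them BCL-XL from Bcl2l1. The same pathway removes oocytes with unrepaired meiotic breaks around birth, the time at which primordial follicles form. Cdkn1a (p21) and Mdm2 are classical p53 targets, and MDM2 in turn marks p53 for degradation.

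Matches to the sequence that p53 binds are shown for the genes whose upstream sequence held one, because the target genes are where the activity of the pathway would be read. RefSeq upstream sequence (GRCm38.p6) was searched for 14 transcription starts of 8 of the genes. Pmaip1 was left out of this search, so whether it holds a match is not reported here, and Trp63 had no entry among the upstream sequences used. Each window covered the 250 bases before a start and was searched for the p53 consensus, which joins a pair of 10-base arms without a spacer and reads the same on both strands. Each arm had to keep its C, its pair of A or T bases and its G, and up to 3 mismatches were allowed over the 20 bases. A match was found at 3 starts, in Cdkn1a, Bbc3 and Trp53, and in 0.475% of all 32851 windows of that length. The match in Cdkn1a had 1 mismatch, and 0.0457% of all windows held a match with no more than that; those in Bbc3 and Trp53 had 3 mismatches. The match lay 51 to 32 bases before the upstream start of Cdkn1a, 97 to 78 bases before a start of Bbc3 and 75 to 56 bases before the start of Trp53. Capitals mark the match, each sequence runs 5′ to 3′ on the plus strand, and a match is a description of letters only.
Cdkn1a, chr17:29090729-29090978, plus strand: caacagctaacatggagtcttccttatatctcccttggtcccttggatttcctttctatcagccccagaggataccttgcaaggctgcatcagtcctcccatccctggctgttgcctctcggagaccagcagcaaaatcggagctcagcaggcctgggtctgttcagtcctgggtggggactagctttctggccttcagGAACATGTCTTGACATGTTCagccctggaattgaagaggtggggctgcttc
Bbc3, chr7:16309333-16309582, plus strand: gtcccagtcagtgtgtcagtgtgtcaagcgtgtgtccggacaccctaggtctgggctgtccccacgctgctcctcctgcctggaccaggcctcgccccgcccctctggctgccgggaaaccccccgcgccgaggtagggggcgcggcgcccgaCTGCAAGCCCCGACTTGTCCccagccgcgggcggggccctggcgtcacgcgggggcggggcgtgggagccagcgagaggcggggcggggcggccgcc
Trp53, chr11:69580109-69580358, plus strand: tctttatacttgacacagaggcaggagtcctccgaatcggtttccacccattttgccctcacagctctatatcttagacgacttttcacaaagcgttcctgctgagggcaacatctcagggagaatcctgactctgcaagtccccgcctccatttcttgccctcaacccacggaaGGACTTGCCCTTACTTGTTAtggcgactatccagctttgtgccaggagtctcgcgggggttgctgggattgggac

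Estimated depth was lowest in cKO replicate 1, with 7200000 fragments, and highest in WT replicate 1, with 14400000 fragments, and it was read from the smallest steps between FPKM values. FPKM summed to 335667 in cKO replicate 1, against 223845 to 246121 in the other 5 libraries. Hnrnpl itself stood at 81.5 to 100.5 FPKM in cKO and 93.8 to 104.1 FPKM in WT libraries, and the log2 fold change of -0.17 was not called (limma adjusted p = 0.571). After median-of-ratios scaling the groups did not overlap, at 84.2 to 87.5 in cKO and 95.4 to 107.4 in WT libraries, and the log2 fold change was -0.26 (limma adjusted p = 0.15). Without scaling 7.03% of all tested genes lay wholly below WT, and the share after scaling was not counted. The whole-gene value in a tissue with many untargeted cells is a weak check of the labels. As a check of the tissue, 8 pregranulosa markers summed to 314.2 to 400.6 FPKM in cKO and 302.7 to 314.5 FPKM in WT, with 5 positive and 3 negative log2 fold changes, while 4 epidermal markers summed to at most 2.06 FPKM in any library. Summed over each marker list, 8 stromal genes stood at 780 to 858 FPKM in cKO and 1018 to 1063 FPKM in WT, 6 endothelial genes at 54.6 to 63.4 FPKM in cKO and 68.6 to 84.6 FPKM in WT, and 6 genes of the surface epithelium at 94.7 to 138.0 FPKM in cKO and 153.0 to 175.9 FPKM in WT. The summed levels of these 3 lists were lower in every cKO library, while those of pregranulosa, blood and testis supporting cells overlapped between groups. Limma called 0 genes of the first and second list and 1 of the third lower in cKO. Over all tested genes it called 0.0723% lower. In list order, 6 of 8, 5 of 6 and 4 of 5 tested genes lay wholly below WT. Over all tested genes 7.03% did. The part of cell makeup in the values that follow was not tested. Fewer cells of a type and less RNA per cell cannot be told apart in such whole-tissue libraries.

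The comparison of cKO with WT ovaries asks whether levels of the p53 family and its death genes differ after germ-cell targeting of Hnrnpl. No gene of the set passed. Of the 8 genes that averaged 1 FPKM or more, limma called 0 at an adjusted p under 0.05, beside 0.121% of all 12442 tested genes (0.0482% higher and 0.0723% lower in cKO), and 1, Bcl2l1, had an unadjusted p under 0.05, where 14.2% of all tested genes had. Bcl2l1 was also the only 1 whose cKO values all lay above its WT values, a pattern of 15.5% of all tested genes, and 0 of the 8 showed the opposite pattern, seen in 7.03% of all tested genes. The log2 fold change was positive in 7 of the 8, with a median of 0.19, while it was positive in 65.2% of all tested genes, with a median of 0.08. After median-of-ratios scaling, which divides each library by its typical ratio to the others, 0 of the 8 were called (1.29% of all tested genes were), 7 were again positive and their median was 0.12, against 0.00 over all tested genes. Trp73 and Pmaip1 had means under 1 FPKM and were not tested in this fit. The 10 genes together summed to 91.2, 78.5 and 77.4 FPKM in cKO and 70.1, 72.4 and 71.8 FPKM in WT libraries, and cKO replicate 1, the highest, also had the highest FPKM sum over all genes. Fold changes here are on the log2(FPKM + 1) scale, which understates changes of low genes.

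**Figure D1:**
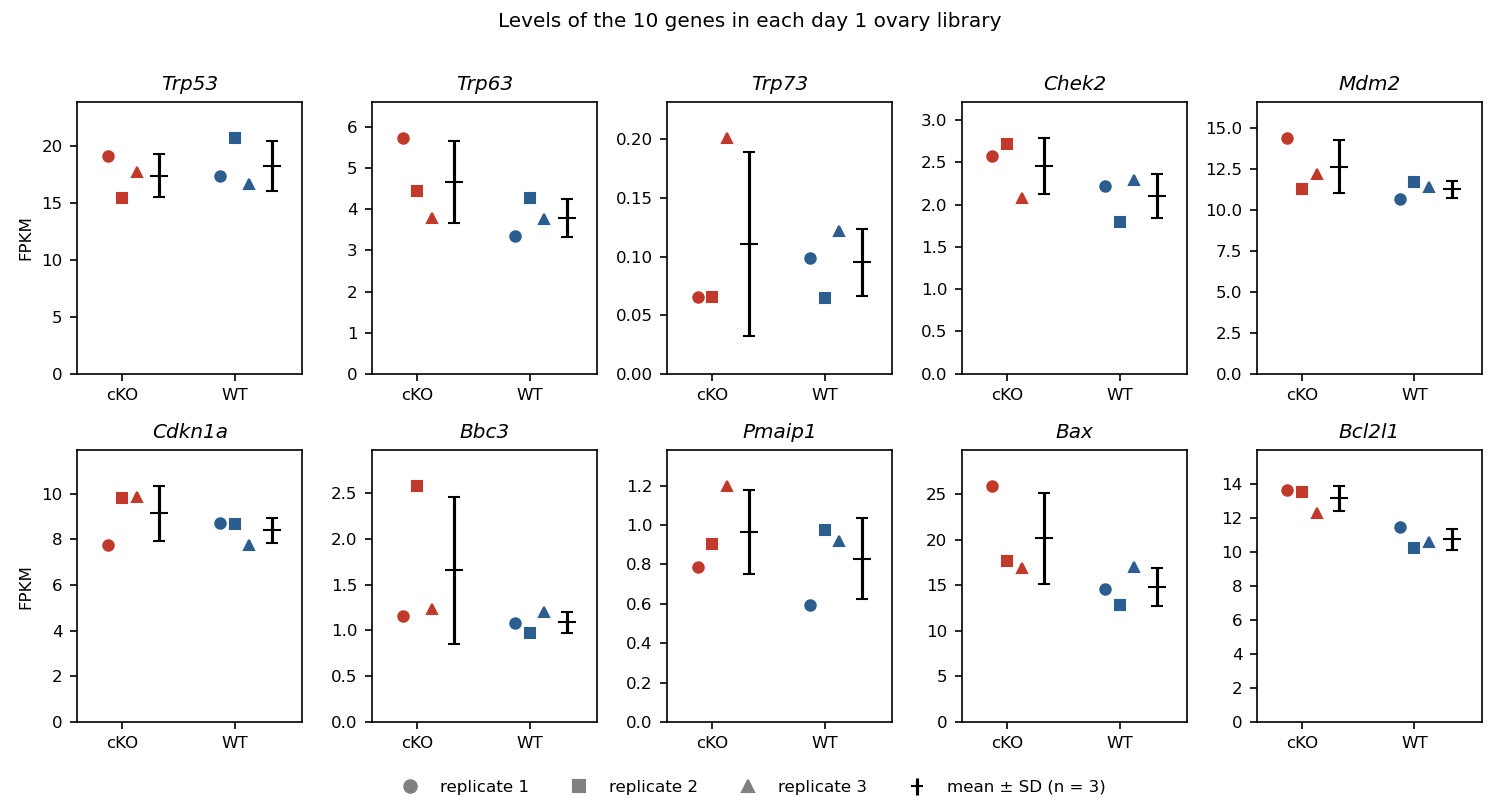
Levels of the 10 genes in FPKM (y axes, from 0) in the 3 cKO and 3 WT libraries, with 1 point per library and black bars for the mean and SD. The groups overlap in every panel except Bcl2l1, where the lowest cKO library stands at 12.3 FPKM and the highest WT library at 11.4 FPKM.

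Across all 6 libraries the levels formed an order in which several neighbours overlapped. Trp53 led with a mean of 17.9 FPKM and Bax followed with 17.5 FPKM, and Trp53 was above Bax in 3 of the 6 libraries, so these neighbours did not separate. Bax exceeded Mdm2 in all 6 libraries, although their ranges overlapped. Mdm2 and Bcl2l1, with means of 11.97 and 11.94 FPKM, did not separate either, Mdm2 being the higher in 3 libraries. Below them came Cdkn1a with 8.76, Trp63 with 4.23 and Chek2 with 2.28 FPKM, each below its upper neighbour in all 6 libraries and without overlap. Bbc3 followed with 1.37 and Pmaip1 with 0.897 FPKM; their ranges overlapped, as did those of Chek2 and Bbc3. Trp73 came last with 0.103 FPKM, below every value of Pmaip1. FPKM is scaled to transcript length, which allows this order, but the genes have 3 to 9 annotated transcripts each and the table gives 1 value for all of them.

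Trp53, the tumour suppressor transcription factor, lies on the plus strand of chromosome 11 from 69580359 to 69591873 (GRCm38). It stood at 19.1, 15.5 and 17.7 FPKM in cKO replicates 1, 2 and 3 and at 17.4, 20.8 and 16.7 FPKM in WT replicates 1, 2 and 3. The lowest and the highest library belonged to different groups, cKO replicate 2 and WT replicate 2, and the rest lay between, from 16.7 to 19.1 FPKM. The log2 fold change was -0.06 (SE 0.12, 95% interval -0.35 to 0.22), which did not pass (limma adjusted p = 0.824; exact two-sided permutation p = 0.7, with 0.1 the smallest that 3 against 3 libraries allow). It was -0.15 after median-of-ratios scaling, -0.18 after quantile normalization and -0.27 after TPM rescaling. All tested genes had medians of 0.00, -0.002 and -0.12 on these scales, against 0.08 without scaling. The sign of Trp53 turned to 0.015 without cKO replicate 2 and to 0.026 without WT replicate 2. Wrap53, a telomerase-associated gene that starts 103 bases away on the opposite strand, stood at 1.80 to 2.86 FPKM in cKO and 2.19 to 2.66 FPKM in WT libraries.

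Trp63, the oocyte guardian of the family, spans 208340 bases of chromosome 16 from 25683763 to 25892102 on the plus strand. It stood at 5.75, 4.45 and 3.78 FPKM in cKO and 3.35, 4.28 and 3.78 FPKM in WT libraries. Only cKO replicates 1 and 2 lay above the highest WT library, and cKO replicate 3 was level with WT replicate 3. The difference of 0.23 (SE 0.15, 95% interval -0.12 to 0.57) did not pass (limma adjusted p = 0.505; exact two-sided permutation p = 0.2). Without cKO replicate 1 it was 0.09 (limma adjusted p = 0.756, and from 0.281 to 0.851 over its 15 alternatives). The table does not separate the TA form from the shorter form that starts at an internal promoter.

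Trp63 was set beside a list of 12 oocyte markers, of which 11 were tested and Oosp1, an oocyte secreted protein, was listed at 0 in 5 libraries. The markers summed to 308.4, 227.9 and 174.7 FPKM in cKO replicates 1, 2 and 3 and to 150.5, 155.1 and 144.6 FPKM in WT replicates 1, 2 and 3. Within cKO, Trp63 and 9 of the 11 markers were highest in replicate 1 and lowest in replicate 3. The FPKM sum over all genes was also highest in cKO replicate 1 (335667), and the share of all tested genes in this order was not counted. After median-of-ratios scaling Lhx8 left the order (17.6, 18.3 and 12.7), while Trp63 (4.89, 4.60 and 3.88) and the rest kept it. The markers differed among themselves: 6 lay wholly above WT (Dazl, Lhx8, Sohlh1, Sycp3, Stag3 and Kit, with log2 fold changes of 0.66 to 1.28), 2 wholly below (Gdf9 with -0.83 and Zp3 with -1.51), and 3 overlapped, among tested genes of which 15.5% lay wholly above and 7.03% wholly below. Dazl, an RNA-binding protein of germ cells, stood at 39.0, 27.6 and 16.8 FPKM in cKO and 9.65, 11.97 and 9.34 FPKM in WT libraries (limma adjusted p = 0.127). Among the 3 that overlapped, Ddx4, an RNA helicase of germ cells, stood at 6.53, 4.34 and 3.53 FPKM in cKO and 4.49, 5.69 and 4.72 FPKM in WT libraries. Figla, a transcription factor needed for primordial follicles, stood at 22.1, 15.4 and 9.96 FPKM in cKO and 12.7, 13.7 and 14.8 FPKM in WT libraries. Neither Ddx4 nor Figla passed (limma adjusted p = 0.881 and 0.819). In this fit Zp3, a zona pellucida protein, alone of the 11 was called, where 0.121% of all tested genes were, and it fell to 2.05, 2.41 and 2.12 FPKM in cKO, against 9.47, 9.63 and 5.69 FPKM in WT libraries (limma adjusted p = 0.0437). After median-of-ratios scaling 5 of the 11 were called, where 1.29% of all tested genes were: Dazl, Sohlh1 and Kit higher, and Gdf9 and Zp3 lower in cKO (limma adjusted p from 0.0132 to 0.043). The part that oocyte content played in the Trp63 values was not tested. The 3 tested genes whose profile over the 6 libraries was most like that of Trp63 were Snx5 (r = 0.997), Dppa3 (r = 0.989) and Vapa (r = 0.989). With cKO replicate 1 and WT replicate 1 left out, r was 0.990, 0.945 and 0.931 over the other 4 libraries. Snx5 stood at 25.8, 21.2 and 18.0 FPKM in cKO and 16.8, 20.3 and 18.5 FPKM in WT libraries. Dppa3, an oocyte and early embryo protein, stood at 50.8, 39.6 and 31.5 FPKM in cKO and 29.8, 36.1 and 33.5 FPKM in WT libraries. Vapa stood at 72.9, 54.1 and 45.8 FPKM in cKO and 40.1, 48.5 and 43.5 FPKM in WT libraries. None of the 3 was in the list of oocyte markers. With 6 libraries and 12442 genes such values are a description, and the points share the depth and RNA of the same libraries.

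**Figure D2:**
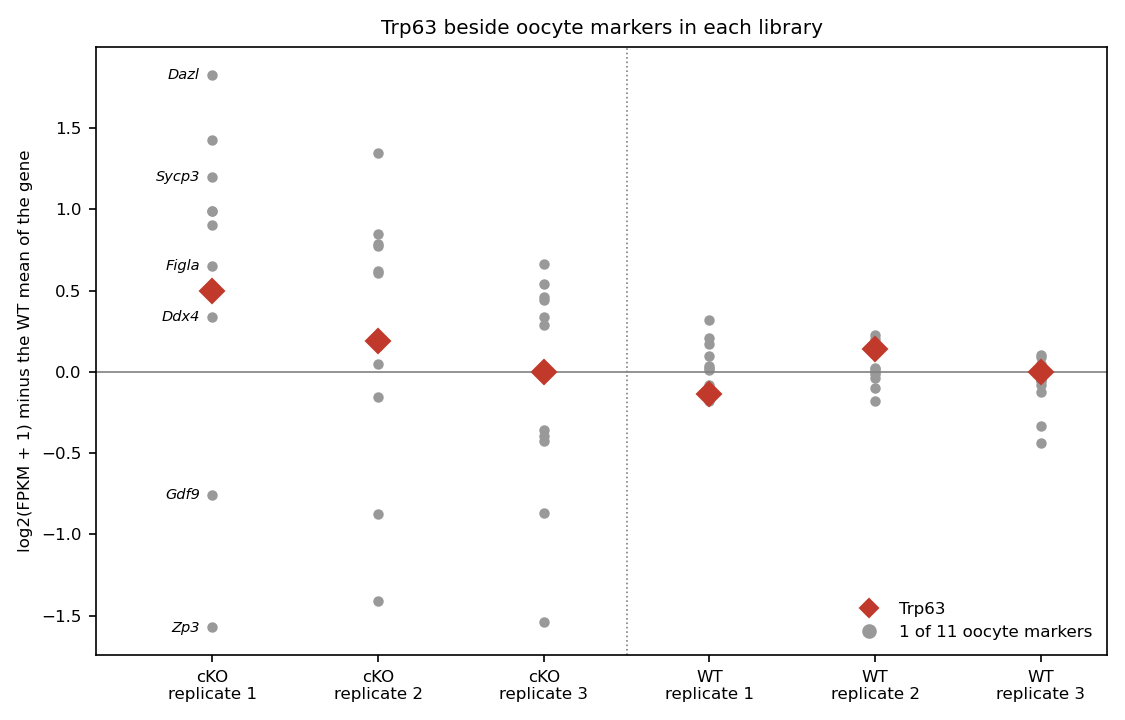
Each library's log2(FPKM + 1) minus the gene's WT mean (y axis) for Trp63 (red diamonds) and 11 oocyte markers (grey points), with the 3 cKO libraries on the left and the 3 WT libraries on the right. Trp63 stands at 0.50, 0.19 and -0.00 in cKO replicates 1, 2 and 3, between Dazl at the top and Zp3 at the bottom. Values are centred on WT, which by itself narrows the WT columns. Each marker except Gdf9 and Zp3 also spreads more among cKO than among WT libraries, as Figla does, from -0.42 to 0.65 in cKO and -0.10 to 0.11 in WT.

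Trp73, the third family member, lies on the minus strand of chromosome 4 from 154056253 to 154140208. It stood at 0.0653, 0.0659 and 0.201 FPKM in cKO and 0.0990, 0.0649 and 0.122 FPKM in WT libraries. At the estimated depth and the length of its longest transcript, 5042 bases, these values stand for about 2.3 to 11.9 fragments per library. So few fragments limit any comparison, and how large a difference would have been detected was not tested. Without the filter on low values its log2 fold change was 0.02 (limma adjusted p = 0.911). The antisense gene Trp73os overlaps it, and nothing in the labels says that strand was used in counting, so reads of the pair cannot be told apart.

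Chek2, the kinase that activates p63 and p53 after DNA breaks, lies on the plus strand of chromosome 5 from 110839979 to 110874145. It stood at 2.57, 2.72 and 2.08 FPKM in cKO and 2.22, 1.80 and 2.29 FPKM in WT libraries. The cKO libraries held the 2 highest values and also the second lowest, so the groups overlapped. The difference of 0.16 (SE 0.14, 95% interval -0.16 to 0.47) did not pass (limma adjusted p = 0.61; exact two-sided permutation p = 0.3). It was 0.083 without WT replicate 2, 0.10 without cKO replicate 2, 0.24 without cKO replicate 3, 0.094 after median-of-ratios scaling and 0.016 after TPM rescaling. With TPM rescaling the median of all tested genes was -0.12.

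Mdm2, the ubiquitin ligase of p53 and itself a p53 target, lies on the minus strand of chromosome 10 from 117688875 to 117710758. It stood at 14.4, 11.3 and 12.2 FPKM in cKO and 10.7, 11.7 and 11.4 FPKM in WT libraries. Replicates 1 and 3 of cKO lay above every WT library, and cKO replicate 2 lay within the WT range. This gave a log2 fold change of 0.15 (SE 0.11, 95% interval -0.11 to 0.41; limma adjusted p = 0.558; exact two-sided permutation p = 0.3). It was 0.05 without cKO replicate 1.

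Cdkn1a, the cyclin-dependent kinase inhibitor p21, lies on the plus strand of chromosome 17 from 29090976 to 29100727, and its upstream start carries the closest match to the p53 consensus shown above. It stood at 7.75, 9.83 and 9.84 FPKM in cKO and 8.72, 8.69 and 7.74 FPKM in WT libraries. Within cKO it was lowest in replicate 1, level with the lowest WT library, while cKO replicates 2 and 3 were the highest of all 6. Its log2 fold change was 0.11 (SE 0.12, 95% interval -0.16 to 0.38; limma adjusted p = 0.69; exact two-sided permutation p = 0.3). Leaving out cKO replicate 1 gave 0.21 (limma adjusted p = 0.29, and from 0.234 to 0.964 over its 16 alternatives). After TPM rescaling the signs of Cdkn1a and Mdm2 turned to -0.087 and -0.049, on a scale where the median of all tested genes was -0.12.

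Bbc3, which encodes the BH3-only death protein PUMA, lies on the plus strand of chromosome 7 from 16308393 to 16318205. It stood at 1.16, 2.58 and 1.23 FPKM in cKO and 1.08, 0.972 and 1.205 FPKM in WT libraries. A single library, cKO replicate 2, carried the difference, and the other 5 lay within 0.972 to 1.23 FPKM. That gave a log2 fold change of 0.31 (SE 0.22, 95% interval -0.20 to 0.81; limma adjusted p = 0.534; exact two-sided permutation p = 0.2), and it was 0.07 without cKO replicate 2. These values stand for about 13.5 to 45.0 fragments per library at its longest transcript.

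Pmaip1, which encodes NOXA, lies on the plus strand of chromosome 18 from 66458533 to 66465565. It stood at 0.788, 0.905 and 1.199 FPKM in cKO and 0.594, 0.9753 and 0.918 FPKM in WT libraries. The highest value was in cKO replicate 3 and the lowest in WT replicate 1, and the other 2 WT libraries lay above the other 2 cKO libraries. Without the filter its log2 fold change was 0.10 (limma adjusted p = 0.759; exact two-sided permutation p = 0.6). The BH3-only genes did not share a pattern: cKO replicate 2 was highest for Bbc3 and cKO replicate 3 for Pmaip1.

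Bax, the effector that opens the outer mitochondrial membrane, lies on the minus strand of chromosome 7 from 45461697 to 45466898, and the annotated gene Gm45808 overlaps it on the same strand. It stood at 25.9, 17.7 and 16.9 FPKM in cKO and 14.6, 12.9 and 17.0 FPKM in WT libraries. The groups overlapped by a small margin, WT replicate 3 lying above cKO replicate 3. Its log2 fold change of 0.40 was the largest of the 8 tested genes in this fit (SE 0.18, 95% interval -0.00 to 0.81), and it did not pass (limma adjusted p = 0.358; exact two-sided permutation p = 0.2). Without cKO replicate 1 it was 0.22 (limma adjusted p = 0.401, and from 0.232 to 0.63 over its 16 alternatives). The longest Bax transcript has 1100 bases, the shortest such length among the 10 genes, and cKO replicate 1 is the library with the highest FPKM sum; the part of transcript length in this value was not tested. With a pseudocount of 0.1 FPKM Bbc3 came first with 0.48, against 0.42 for Bax, and without cKO replicate 1 with 0.44. Bbc3 also came first after quantile normalization (0.32, against 0.29 for Bax) and TPM rescaling (0.27 against 0.22). The same held with library weights (0.45 against 0.25) and after scaling without cKO replicate 1 (0.44 against 0.22).

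Bcl2l1, the gene for the survival protein BCL-XL and its shorter splice form BCL-XS, lies on the minus strand of chromosome 2 from 152780668 to 152831728. It stood at 13.6, 13.5 and 12.3 FPKM in cKO and 11.4, 10.2 and 10.6 FPKM in WT libraries, with a mean of 13.1 ± 0.746 FPKM in cKO and 10.7 ± 0.617 FPKM in WT (SD, n = 3). Every cKO library lay above every WT library, and after median-of-ratios scaling this held by a narrow margin, with scaled FPKM of 11.60, 13.94 and 12.60 in cKO and 11.56, 10.42 and 11.14 in WT libraries. That pattern was seen in 15.5% of all tested genes without scaling and in 12.6% after it. The log2 fold change of Bcl2l1 was 0.27 (SE 0.10, 95% interval 0.04 to 0.49). It had the smallest p of the set and still did not pass over all genes (limma adjusted p = 0.285; exact two-sided permutation p = 0.1, the smallest possible). It was 0.19 after that scaling (limma adjusted p = 0.308) and 0.08 after TPM rescaling, where the median of all tested genes was -0.12. Over the 16 alternatives of Bcl2l1 the limma adjusted p ran from 0.18 to 0.787. The splice forms are not separated in a gene-level table.

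**Figure D3:**
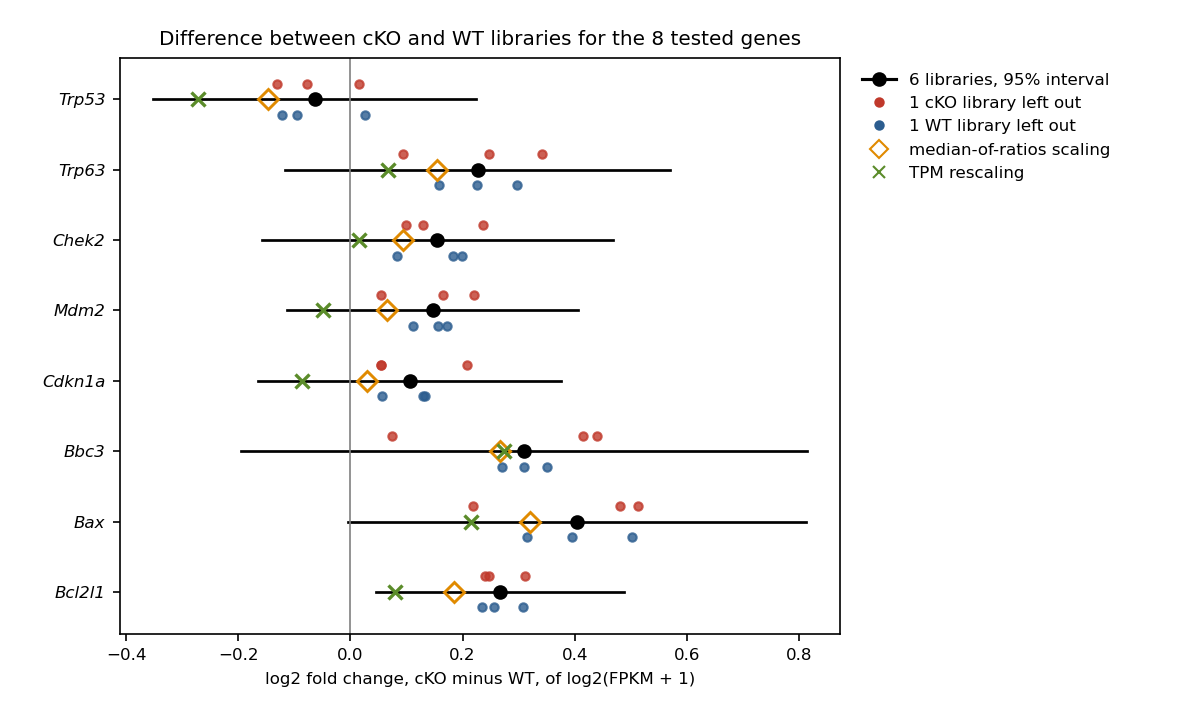
The log2 fold change of cKO over WT (x axis) for the 8 tested genes, with black points and 95% intervals for the fit on 6 libraries, coloured points for fits without 1 library, and symbols for 2 rescalings. The interval of Bcl2l1 alone excludes 0, with 0.04 to 0.49, and Bbc3 drops to 0.07 without cKO replicate 2.

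The ratio of Bax to Bcl2l1 within a library sets a death effector against its inhibitor and is little affected by how libraries are scaled. Bax over Bcl2l1 was 1.90, 1.31 and 1.38 in cKO and 1.27, 1.26 and 1.61 in WT libraries. The groups overlapped, since WT replicate 3 exceeded cKO replicates 2 and 3. The log2 ratio averaged 0.56 ± 0.28 in cKO and 0.42 ± 0.19 in WT libraries (SD, n = 3), a difference of 0.14 (exact two-sided permutation p = 0.5). Without cKO replicate 1 the difference was -0.023, so its direction rested on that library.

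The wider pathway was read from 4 lists of other genes, and limma called 0 genes of any of them with all 6 libraries as deposited and equally weighted. Over all tested genes, for comparison with the counts that follow, 65.2% were positive, and 9.89% were higher and 4.26% lower at an unadjusted p under 0.05. In the list of p53 regulators and checkpoint kinases, 19 of 20 symbols were found and tested, 13 were positive and the median log2 fold change was 0.05. At an unadjusted p under 0.05 it had 3 genes higher and 1 lower. Chek1, the replication checkpoint kinase, stood at 3.996, 3.91 and 3.08 FPKM in cKO and 2.495, 2.37 and 2.24 FPKM in WT libraries, without overlap (log2 fold change 0.46, limma adjusted p = 0.188). Hipk2, a kinase that phosphorylates p53 for apoptosis, lay the other way, at 9.94, 9.83 and 10.5 FPKM in cKO and 12.7, 13.1 and 11.5 FPKM in WT libraries (log2 fold change -0.27, limma adjusted p = 0.273). Ppp1r13b, an ASPP protein that directs p53 to apoptotic targets, averaged 8.43 ± 0.963 in cKO and 6.35 ± 0.969 FPKM in WT, and Rchy1, a p53 ubiquitin ligase, 15.4 ± 2.57 in cKO and 11.8 ± 1.117 FPKM in WT (SD, n = 3; limma adjusted p = 0.282 and 0.317).

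The list of other p53 target genes held 24 genes, of which 20 were tested; 12 were positive and 8 negative, with a median of 0.06, and 3 were higher and 0 lower at an unadjusted p under 0.05. Aen, an apoptosis-enhancing nuclease induced by p53, stood at 10.8, 13.0 and 13.6 FPKM in cKO and 7.62, 5.65 and 5.49 FPKM in WT libraries. Its lowest cKO library lay well above its highest WT library, and the log2 fold change was 0.90 (SE 0.14, 95% interval 0.57 to 1.22). Aen missed the threshold with all 6 libraries (limma adjusted p = 0.0686), where 0.121% of all tested genes passed. It passed without cKO replicate 1 (limma adjusted p = 0.0466), where 89 of 12411 tested genes did. Of 16 alternatives Aen passed in 3, with limma adjusted p from 0.0213 to 0.294. Sesn2, a sestrin that answers to p53 and to amino acid stress, stood at 8.55, 6.86 and 6.14 FPKM in cKO and 4.58, 4.40 and 3.97 FPKM in WT libraries. It missed the threshold too (limma adjusted p = 0.127) and passed after median-of-ratios scaling (limma adjusted p = 0.0387), where 1.29% of all tested genes did. Of 16 alternatives Sesn2 passed in 3, with limma adjusted p from 0.0337 to 0.423. Perp, a p53 and p63 target of cell junctions, averaged 3.15 ± 0.763 in cKO and 1.78 ± 0.363 FPKM in WT, and Ccng1, cyclin G1, 8.04 ± 1.34 in cKO and 6.37 ± 0.589 FPKM in WT (SD, n = 3; limma adjusted p = 0.227 and 0.366). Phlda3, Zmat3, Gadd45a and Btg2, further targets named after their values were seen, had values of -0.00, -0.11, -0.06 and -0.15 for the log2 difference. Tigar, Ei24 and Trp53inp1, also named after their values were seen, lay the other way with 0.48, 0.32 and 0.30. Their groups overlapped (limma adjusted p = 0.389, 0.412 and 0.37). Of the 20 tested targets 4 lay wholly above and 2, Btg2 and Sesn1, wholly below WT. Over all tested genes 15.5% lay wholly above and 7.03% wholly below.

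The other BCL-2 family genes numbered 14, of which 11 were tested and 7 were positive, with a median of 0.17 and 1 gene higher and 0 lower at an unadjusted p under 0.05. That gene was Bnip3, a mitophagy receptor induced by low oxygen, at 16.5, 8.90 and 7.35 FPKM in cKO and 5.74, 5.48 and 4.67 FPKM in WT libraries (log2 fold change 0.85, limma adjusted p = 0.218). The BH3-only genes Bad and Bid averaged 13.4 ± 2.31 and 5.17 ± 1.46 FPKM in cKO, against 10.6 ± 0.971 and 3.72 ± 0.777 FPKM in WT (SD, n = 3; limma adjusted p = 0.379 and 0.402). Bnip3l, a mitophagy receptor related to Bnip3, averaged 37.3 ± 7.17 in cKO and 30.4 ± 2.73 FPKM in WT (SD, n = 3; limma adjusted p = 0.444).

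All 18 genes of the list of caspases, the apoptosome and their inhibitors were tested; 10 were positive, the median was 0.03, and 1 was higher and 0 lower at an unadjusted p under 0.05. Diablo, which frees caspases from their inhibitors once it leaves mitochondria, stood at 28.8, 20.9 and 18.9955 FPKM in cKO and 16.2, 16.1 and 15.5 FPKM in WT libraries (log2 fold change 0.48, limma adjusted p = 0.244). Endog, a mitochondrial nuclease, stood at 4.53, 3.40 and 3.36 FPKM in cKO and 0.713, 3.25 and 2.57 FPKM in WT libraries, its low WT mean resting on replicate 1 (limma adjusted p = 0.378). Casp6, an executioner caspase, averaged 26.8 ± 6.42 in cKO and 21.1 ± 1.39 FPKM in WT, and Aifm1, a mitochondrial flavoprotein that can leave for the nucleus in cell death, 9.987 ± 2.11 in cKO and 8.14 ± 0.449 FPKM in WT (SD, n = 3; limma adjusted p = 0.429 and 0.453). Casp9 of this list and Apaf1 of the list of p53 targets form the apoptosome and were named after their values were seen; their log2 differences were 0.15 and -0.08. After median-of-ratios scaling the medians of the 4 lists were -0.03, -0.01, 0.10 and -0.05 in the order given, beside 0.00 for all tested genes.

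**Figure D4:**
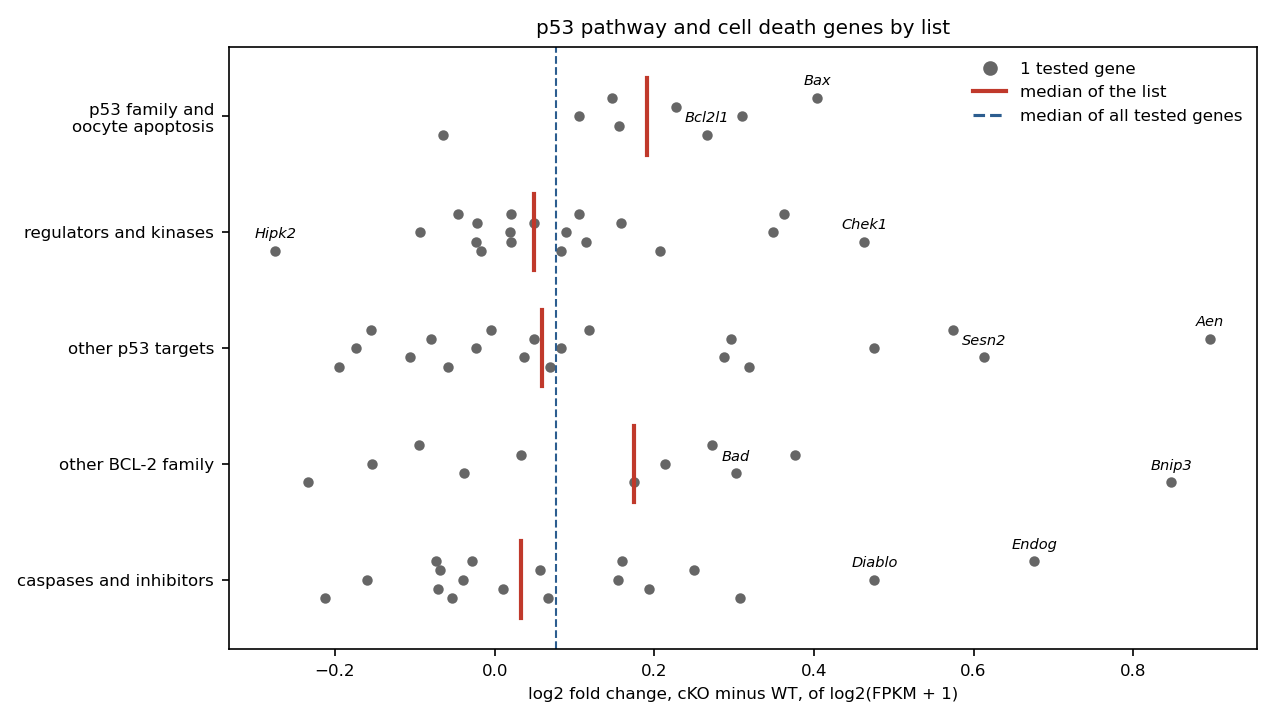
The log2 fold change of cKO over WT (x axis) for each tested gene of the p53 and oocyte apoptosis set and of 4 lists of related genes (rows), with a red line at each list's median and a dashed line at the median of all tested genes, 0.08. Aen at 0.90 and Bnip3 at 0.85 lie farthest to the right, and the 2 genes with the smallest p of each row are named.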

How the data were processed

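Whole day 1 ovaries were profiled by RNA sequencing in 3 cKO and 3 WT libraries, grouped by sample title. The authors deposited 1 table of FPKM values with 25164 symbols; each of its 6 columns matched 1 title. The build mm10 and the tools featureCounts 2.0.6, HISAT2 2.2.1 and STAR 2.7.11a appear in the submitters' processing notes with no role. The annotation and the program that computed FPKM are not given in the sources used here; the name of the deposited table carries a tag for duplicate removal. Per the labels' protocols, libraries were made from amplified cDNA. FPKM carries no counts, so depth was estimated from the smallest FPKM steps in 2437 genes with 1 transcript of at least 1500 bases, taking fragments of 200 bases; fragment numbers per gene are therefore rough.

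Values were taken to log2(FPKM + 1), the 12442 genes that averaged 1 FPKM or more across the libraries were kept, and cKO was compared with WT by limma 3.58.1 (R 4.3.3) with an intensity trend, two-sided, with Benjamini-Hochberg adjustment over all tested genes and a threshold of 0.05. Exact permutation tests ran over the 6 libraries. The steps were tested on simulated data with independent noise for each gene and no shift shared by a library. Only genes above the lowest levels were changed there, so library scaling and genes as low as Chek2 and Bbc3 were not covered. Gene positions came from GENCODE M21 (GRCm38) and upstream sequence from RefSeq (GRCm38.p6). The genes described and the lists were chosen with earlier results of these data known. By rule the text names all 10 genes of the set, Hnrnpl, Wrap53, the 4 tested genes with the smallest p of each related list, and the 3 genes most like Trp63. Alternatives covered the pseudocount, the filter, scaling, trend, library weights, the replicate number and each library left out; scaling without cKO replicate 1, and the list counts under every alternative, were added after seeing the data.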

Additional observations from a re-analysis of the deposited data

How the results depend on the processing

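No gene of the p53 and oocyte apoptosis set was called under any of the 16 alternatives. The sign of the log2 fold change turned for Trp53, which ranged from -0.13 to 0.026 with 1 library left out (0.015 without cKO replicate 2 and 0.026 without WT replicate 2), and was farthest from 0 with TPM rescaling (-0.27), and it turned with TPM rescaling for Cdkn1a (-0.087) and Mdm2 (-0.049). The median of all tested genes was -0.12 with TPM rescaling. Trp63, Chek2, Bbc3, Bax and Bcl2l1 stayed positive under all alternatives in which they were tested. The difference of the Bax to Bcl2l1 log2 ratio ranged from -0.023 to 0.25 with 1 library left out and was -0.023 after scaling without cKO replicate 1, an alternative chosen after seeing the data. Genes called among other p53 targets numbered 1 after median-of-ratios scaling (Sesn2), 1 after quantile normalization (Sesn2), 2 with library weights (Aen and Sesn2), 0 to 1 with 1 library left out and 1 after scaling without cKO replicate 1 (Aen); the 3 other related lists had 0 under all 16. Over all genes, 15 calls became 34 with a pseudocount of 0.1 FPKM, 5 with no filter, 23 with a filter at 5 FPKM, 161 after median-of-ratios scaling, 233 after quantile normalization, 149 after TPM rescaling, 5 without the intensity trend, 172 with library weights, 95 after scaling without cKO replicate 1, and 2 to 89 with 1 library left out. The cause of these changes was not tested. With the replicate number as a block 2 genes were called and 0 of the set. The labels give no shared litter or day for a number, and the residuals of same-numbered libraries correlated at -0.01, 0.04 and 0.07, with 4 of 6 libraries closest to their own number. Estimated depth limits Trp73, Pmaip1 and Bbc3 most.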

Other observations

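Of 7 related genes below the filter, Eda2r and Bik, named after their values were seen, had groups that did not overlap. Among tested genes 15.5% lay wholly above and 7.03% wholly below WT. The tested genes are those above the filter, and the share among genes below it was not counted. Eda2r, a p53-induced receptor of the tumour necrosis factor family, stood at 1.32, 0.800 and 0.910 FPKM in cKO and 0.725, 0.643 and 0.543 FPKM in WT libraries. Bik, a BH3-only gene, lay the other way at 0.354, 0.585 and 0.734 FPKM in cKO and 1.05, 0.745 and 0.796 FPKM in WT libraries, by a margin of less than 0.02 FPKM. Each had p = 0.1 in an exact permutation test, two-sided, the smallest that 3 against 3 libraries allow. Groups without overlap always give this value, so it adds nothing to the pattern for which Eda2r and Bik were named. Bcl2l10, an oocyte BCL-2 family gene, was listed at 0 in cKO replicate 2 and at 0.617 FPKM or less elsewhere, and Hrk, a BH3-only gene, at 0.176 FPKM or less in all 6 libraries.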
